A study of Mus musculus with 6 samples.

Results

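In E14 mouse embryonic stem cells, 277491 CG dyads were listed for 5-hydroxymethylcytosine (5hmC) on 1 strand and for 5-formylcytosine (5fC) on the other. A CG dyad is the palindromic pair of cytosines, 1 on each strand, that face each other in a CG dinucleotide. The dyads were chosen from the deposited site lists of chromosomes 1 to 19: exactly 1 strand in the 5hmC list, exactly 1 strand in the 5fC list, and the strands different. Of 11410464 dyads in either list and 3583163 in both, 1373104 had exactly 1 listed strand for each mark. These are called one-strand dyads below, and the 1095613 with both marks listed at the same cytosine are the comparison. The lists come from separate libraries of each mark, so they do not show both marks on 1 DNA molecule. The read numbers of the lists themselves chose the members, so counts and reads are given as a description and without a test.

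The study profiled genomic DNA of E14, an established line, with Pvu-Seal-seq. The labels give 2 technical replicate libraries of each mark from a culture at passage 14, and 2 of 5hmC from a culture at passage 12. All cells were grown on gelatin with LIF and serum, with no genetic change or treatment named in the labels. Each table holds 1 pooled read number per cytosine, so no value has a replicate error and none of the comparisons could be tested. The tables held 260905804 5hmC and 101416586 5fC reads at the listed cytosines of these chromosomes, and whether the passage 12 culture is in the 5hmC table is not stated. The 95% Wilson intervals cover counting error over dyads only, since neighbouring dyads are not independent, nor are PCR copies without molecular identifiers.

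TET enzymes oxidise 5-methylcytosine to 5hmC, and 5hmC further to 5fC, which the glycosylase TDG can remove. Maintenance methylation keeps 5-methylcytosine on both strands of a CG, whereas oxidation can act on either cytosine separately. PvuRts1I cuts at a short, nearly fixed distance on the 3′ side of a modified cytosine, and it cuts best between a pair of cytosines that face the cut from both strands. The 3′ sides of the plus and the minus cytosine of a dyad lie in different flanks. From which flank the reads at a listed cytosine came was not given in the tables. Below, the 5hmC side is the flank downstream of the 5hmC along its own strand, and the 5fC side is the flank downstream of the 5fC. The same-strand dyads have a side of both marks and a side of neither.

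Opposite strands made up 20.2% of the one-strand dyads (interval 20.1 to 20.3%), 7.74% of the dyads in both lists and 2.43% of all listed dyads. The orientation was balanced: 138805 members had 5hmC on the plus strand and 138686 on the minus strand. On the 19 autosomes the share ran only from 19.8% on chromosome 15 to 20.7% on chromosome 5. Set against the 5hmC dyads of each chromosome, the number of members ran from 22.2 per 1000 on chromosome 3 to 28.2 per 1000 on chromosome 11. Chromosome 11 was thus rich in members without a raised share, which stood there at 19.9%.

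A listed cytosine has at least 2 reads, and this floor is the edge of the rule. Just inside it, 12645 members had 2 5hmC reads, with a median of 9 5fC reads, and 10801 members had 2 5fC reads, with a median of 9 5hmC reads. Just outside it, 21413 dyads had 1 strand of 5fC and 5hmC on both strands, with 2 5hmC reads on the strand of the 5fC and a median of 10 on the other. A further 3018 dyads failed in the same way through 2 5fC reads on the strand of the 5hmC. The listing rule was not given in the sources used here, and an unlisted strand may still carry the mark. With the floor raised to 10 reads in both lists, 205925 dyads met the rule, and 35.9% of them were members.

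Members had fewer reads of either mark than same-strand dyads. Their 5hmC reads ran from 2 to 157, with a median of 10 (quartiles 6 and 18), against a median of 18 (quartiles 9 and 31) in same-strand dyads. Their 5fC reads ran from 2 to 160, with a median of 9 (quartiles 6 and 15), against 13 (quartiles 8 and 20). The distributions overlap widely, but the upper ends differ: the 95th percentile of 5hmC reads was 35 in members and 59 in same-strand dyads. The deepest same-strand dyad, a single extreme, had 56465 5hmC reads. Together the members held 3695426 5hmC reads, 1.63% of those at listed CGs, and 3099295 5fC reads, 3.87% of those at listed CGs.

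**Figure D1:**
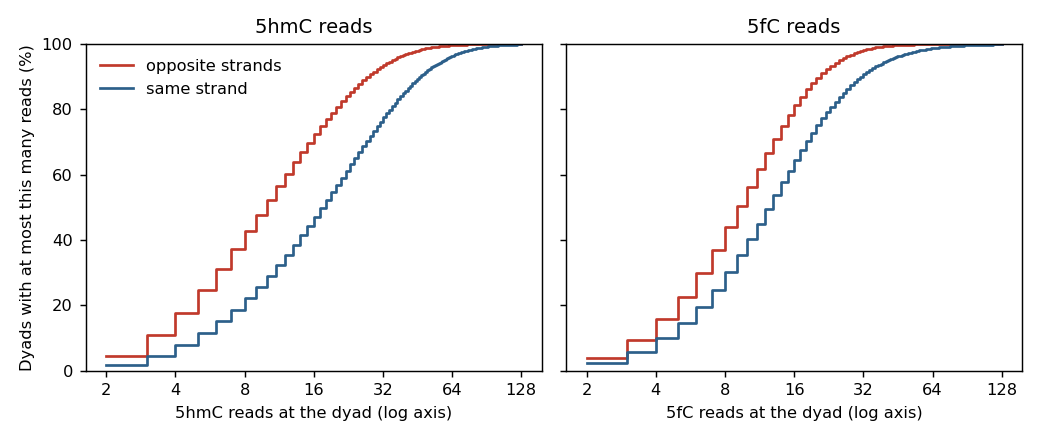
Cumulative share of opposite-strand and same-strand dyads by 5hmC reads (left) and 5fC reads (right), on log axes up to 128 reads. The opposite-strand curves lie to the left for both marks, with medians of 10 against 18 5hmC reads and 9 against 13 5fC reads.

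The reads of the marks were nearly unrelated in the members. Across the 277491 opposite-strand dyads, the Spearman correlation of 5hmC with 5fC reads was 0.045, whereas it was 0.35 across the same-strand dyads. The choice of members bears on these values, since members with many reads of both marks were rare. The members also set reads of different cytosines side by side, and the same-strand dyads those of the same cytosine. Dyads of a list share its libraries and depth and are not replicates.

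The share of opposite strands fell steadily as either mark gained reads. By 5hmC it was 38.9% at 2 reads, 30.6% at 5 to 8, 14.9% at 17 to 32 and 2.47% at 65 or more. By 5fC the fall started lower, at 30.0% for 2 reads, and ended at 1.19% for 65 or more. Reads of both marks counted jointly. At 9 to 16 reads of each mark, 31001 of 133595 one-strand dyads were opposite, or 23.2% (interval 22.98 to 23.4%). At 33 to 64 reads of each, 475 of 36222 were opposite, or 1.31% (1.20 to 1.43%), and at 65 or more of each 6 of 6105, or 0.0983% (0.0451 to 0.214%). Where only 5hmC was deep, opposite strands stayed common: 23 of 83 dyads with 65 or more 5hmC reads and 2 5fC reads, or 27.7% (19.2 to 38.2%). The same was seen where only 5fC was deep. With 65 or more 5fC reads and 2 5hmC reads, 3 of 15 were opposite, or 20.0% (7.05 to 45.2%). With 5 to 8 5hmC reads it was 37 of 208, or 17.8% (13.2 to 23.6%).

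**Figure D2:**
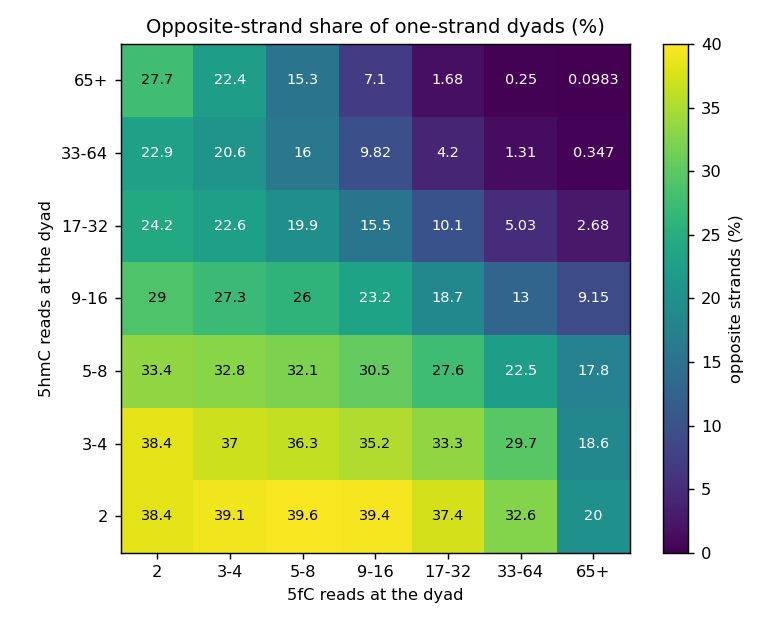
Share of one-strand dyads with the marks on opposite strands (%), by 5hmC reads (rows) and 5fC reads (columns) at the dyad. The share falls from 38.4% where both marks had 2 reads to 0.0983% where both had 65 or more. It is 27.7% at 65 or more 5hmC and 2 5fC reads, and 20.0% at 2 5hmC and 65 or more 5fC reads.

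Most members therefore lie at low or moderate depth, and 73850 had at least 10 reads of each mark, 8273 at least 20, 949 at least 30 and 21 at least 50. A related pattern was seen in dyads that are no members. Of 1402221 dyads with unequal 5hmC on both strands and 5fC on 1 strand, 29.6% had the 5fC on the strand with fewer 5hmC reads (interval 29.5 to 29.7%).

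The members with the most reads of both marks are named by the smaller of their read numbers, leaving out chromosome 18. Positions are in mm9 and give the plus and the minus cytosine. No mm9 sequence or gene annotation was used here, so the surrounding bases and the genes are not given. The first, chr11:117776024-117776025, had 78 5hmC reads on the plus strand and 125 5fC reads on the minus strand. It is followed by chr4:139699928-139699929, with 87 5hmC reads on the minus strand and 69 5fC reads on the plus strand. Next is chr2:126591668-126591669, with 73 5hmC reads on the plus and 67 5fC reads on the minus strand. At chr12:8551883-8551884 there were 65 5hmC reads on the plus and 68 5fC reads on the minus strand. At chr19:44003799-44003800 there were 65 5hmC reads on the minus and 75 5fC reads on the plus strand. The sixth, chr11:96678485-96678486, had 63 5hmC reads on the plus and 69 5fC reads on the minus strand. All 6 had a listed non-CG cytosine of the 5hmC list facing the 5hmC on the 5hmC side, a feature described below. The 6 were chosen for their reads, and the feature was frequent in deep dyads. At 33 to 64 reads of each mark, 56.8% of members and 44.2% of same-strand dyads had it.

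The dyads around these 6 did not share 1 pattern. The nearest neighbour of the first lay 12 bases to its right and had 82 5hmC reads on the minus strand and none listed on the plus strand, with 5fC on both strands at 18 and 38 reads. The dyad on chromosome 12 had 71 bases to its nearest listed neighbour, which had 6 5hmC reads and no listed 5fC. The dyad on chromosome 19 lay between neighbours at 29 bases on the left, with both marks on the minus strand, and at 30 bases on the right, with 5hmC on both strands and 5fC on the plus strand.

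The members deepest for a single mark were lopsided. The most 5hmC reads were 157, on the plus strand of chr11:61262716-61262717, against 25 5fC reads on the minus strand. A dyad at chr14:106377189-106377190 had 156 5hmC reads on the minus strand and 9 5fC reads, and chr9:71583051-71583052 had 147 on the plus strand and 8. For 5fC, chr1:181042612-181042613 had 160 reads on the plus strand and 48 5hmC reads on the minus strand. It was followed by chr8:95395090-95395091 with 151 5fC and 6 5hmC reads, and by chr5:116439633-116439634 with 147 5fC and 26 5hmC reads.

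The rule did not name other dyads, and the flanks were described next. They may not be independent of the rule, since the same cut reads may have listed a cytosine and its facing partner. How reads were assigned to cytosines was not given, so this was not tested. A CG partner at a fixed spacing was less frequent on the 5hmC side of the members than on the side of both marks of same-strand dyads. A listed CG dyad of either list lay 20 to 23 bases away on the side of both marks in 12.5% of same-strand dyads, against 5.28% at 30 to 33 bases on the same side. On the 5hmC side of opposite-strand dyads the shares were 6.48% (interval 6.39 to 6.57%) and 6.46% (6.37 to 6.56%), so the share of dyads listed on either strand was flat. Counting only the partner's cytosine that faces the 5hmC, 21 to 24 bases away, a smaller rise was present. It was in the 5hmC list for 5.69% of members (interval 5.61 to 5.78%), against 4.60% (4.52 to 4.68%) at 31 to 34 bases, and in the 5fC list for 3.16% against 2.40%. In same-strand dyads the facing cytosine was in the 5hmC list for 11.5%, against 3.66%. At 21 bases exactly, the highest point in same-strand dyads, the share was 4.18% there and 1.64% in the members. The gap in CG dyads at 20 to 23 bases was also present at matched reads. At 3 to 4 reads of each mark the shares were 4.74% in members and 7.25% in same-strand dyads. At 33 to 64 reads they were 9.26% and 18.6%. At 3 to 4 reads the 5fC side of the members, with 4.95%, was near their 5hmC side.

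The 5fC side of the members had fewer CG partners than its surroundings. There 4.29% (interval 4.21 to 4.36%) had a listed CG dyad at 20 to 23 bases, against 5.50% (5.42 to 5.59%) at 30 to 33 bases. The low share was at 20 to 22 bases, with 0.64% at 21, while 23 bases stood at 1.84%, above the 1.44% at 24 bases. In same-strand dyads the side of neither mark was lower still, with 2.21% at 20 to 23 bases and 0.295% at 21. The 5fC side thus lay between a flank with no listed mark and the reference spacing.

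**Figure D3:**
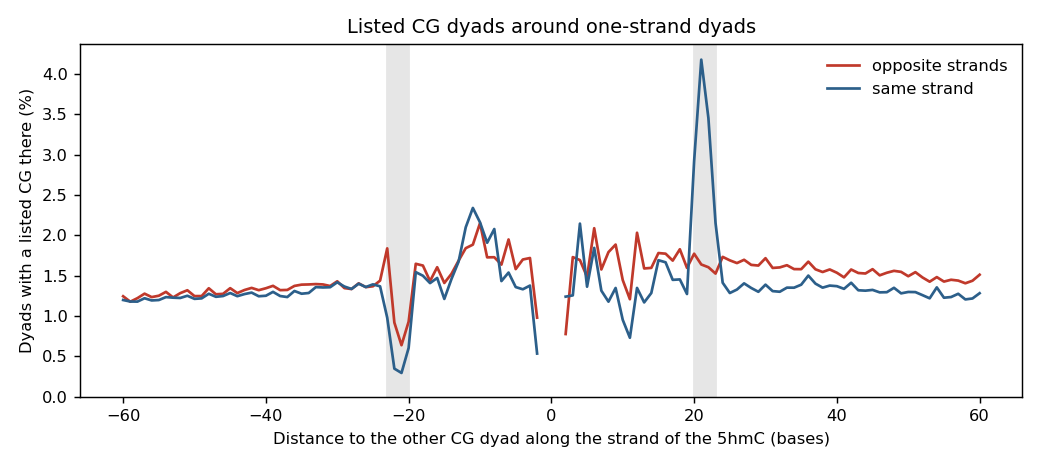
Share of dyads (%) with another listed CG dyad at each distance of 2 to 60 bases, along the strand of the 5hmC; positive distances are the 5hmC side and negative distances the 5fC side of opposite-strand dyads, or the side of neither mark of same-strand dyads. Grey bands mark 20 to 23 bases, where same-strand dyads rise to 4.18% and opposite-strand dyads stay at 1.64% at 21 bases.

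Dyads with a single mark gave a reference for each side. In 5106124 dyads with 5hmC on 1 strand and no listed 5fC, 4.89% had a CG dyad at 20 to 23 bases on the 5hmC side, against 3.37% at 30 to 33 bases. In 255173 dyads with 5fC on 1 strand and no listed 5hmC, the shares on the 5fC side were 5.08% and 5.10%. Over the distances of 18 to 26 bases examined in these dyads, the 5fC side had its highest share at 23 bases, with 1.79%, and its lowest at 21, with 0.99%. Over the same distances the 5fC side of the members was also highest at 23 and lowest at 21 bases, although their share at 10 bases was higher, at 2.15%.

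Where a CG partner was present at 20 to 23 bases on the 5hmC side, its cytosine facing the dyad was usually listed for 5hmC. This was so for 87.6% of 18150 partner dyads, against 70.9% of 18159 dyads at 30 to 33 bases. The same cytosine was listed for 5fC in 48.6%, against 36.8%. This was not particular to the members. On the side of both marks of same-strand dyads it was 91.6% for 5hmC, against 69.0% at 30 to 33 bases. For 5fC it was 51.0% there, against 30.6%. On the 5fC side the facing cytosine was listed for 5hmC in 70.2% of 12005 partners, close to the 73.5% at 30 to 33 bases, and for 5fC in 35.4%, against 32.2%.

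Cytosines outside CG gave a larger signal at the same spacing, which is 21 to 24 bases when counted from cytosine to facing cytosine. On the 5hmC side, 23.2% of members had a facing non-CG cytosine in the 5hmC list, against 2.02% at 31 to 34 bases. The share was 26.4% on the side of both marks of same-strand dyads and 9.66% on the marked side of dyads with 5hmC alone. Over all dyads the members were thus below same-strand dyads, but in each read class from 3 to 4 up to 33 to 64 reads of each mark they were above them. At 9 to 16 reads of each mark the shares were 23.4% in members and 19.4% in same-strand dyads.

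The 5fC list also had these facing cytosines on the 5hmC side of the members, more often than on the side of the 5fC itself. A facing non-CG cytosine with 5fC reads was listed on the 5hmC side of 11.05% of members (interval 10.9 to 11.2%) and on the 5fC side of 4.91% (4.83 to 4.99%). At 31 to 34 bases the shares were 0.813% and 0.807%. In same-strand dyads they were 10.4% on the side of both marks and 4.67% on the side of neither. The classes were thus close on each side over all reads. At matched reads the 5hmC side of members differed from the side of both marks. At 9 to 16 reads of each mark, the share was 10.36% on the 5hmC side of members. It was 7.17% on the side of both marks of same-strand dyads. On the 5fC side of members it was 4.76% in this read class, against 3.69% on the side of neither mark. At 33 to 64 reads these were nearly equal, at 7.58% and 7.52%. CG dyads of either list at 20 to 23 bases on the 5hmC side went the other way. At 9 to 16 reads of each mark, 6.40% of members had one. On the side of both marks of same-strand dyads it was 10.8%. Over all reads these shares were 6.48% and 12.5%. In dyads with 5fC alone, over all reads, a facing non-CG cytosine of the 5fC list was found in 3.83% on the 5fC side and 4.37% on the other.

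**Figure D4:**
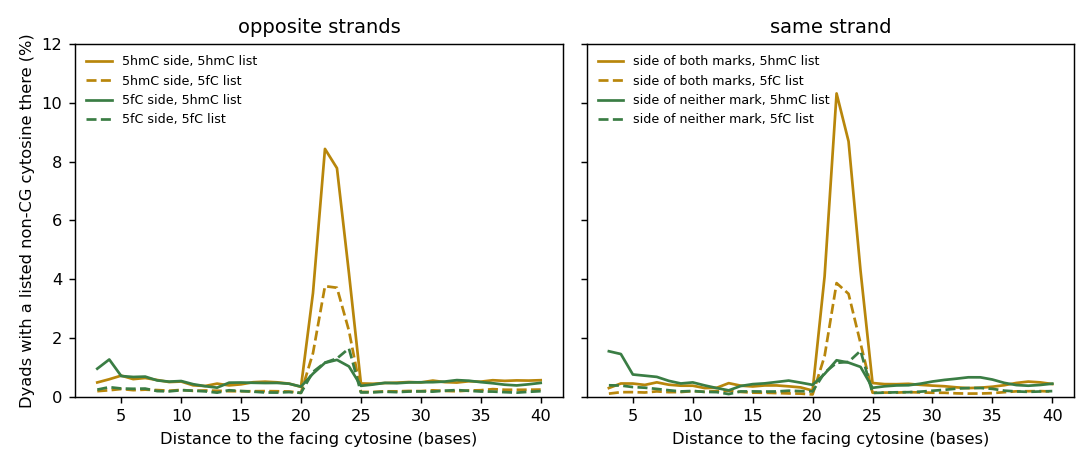
Share of dyads (%) with a listed non-CG cytosine on the facing strand, by distance in bases, for opposite-strand dyads (left) and same-strand dyads (right); solid lines are the 5hmC list and dashed lines the 5fC list. All lines rise at 21 to 24 bases, and in opposite-strand dyads the 5fC list reaches 3.76% at 22 bases on the 5hmC side and 1.64% at 24 bases on the 5fC side.

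The reads of these facing cytosines were counted in members with exactly 1 of them. On the 5hmC side, 62098 members had a single facing non-CG cytosine in the 5hmC list, with a median of 6 reads (quartiles 4 and 10) beside a median of 16 at their own 5hmC. Partner and own 5hmC reads had a Spearman correlation of 0.33 across members. For 30208 members with a single facing non-CG cytosine in the 5fC list on the 5hmC side, it had a median of 12 5fC reads (quartiles 7 and 18), beside a median of 11 at the 5fC of the dyad. The correlation of these 5fC reads was weaker, at 0.12. The 5fC of a member lies on the other strand from its 5hmC and does not face this cytosine. In same-strand dyads, where both marks face it, the correlations were similar, at 0.36 for 5hmC and 0.11 for 5fC. Exactly equal numbers were seen in 3.56% and 4.29% of these members, so the facing cytosine and the dyad mostly had different read numbers.

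The difference between the flanks grew with depth. Among members with 5 to 8 reads of each mark, 13.2% had a facing non-CG 5hmC cytosine on the 5hmC side, rising to 23.4% at 9 to 16 reads, 40.9% at 17 to 32 and 56.8% (interval 52.4 to 61.2%) at 33 to 64. On the 5fC side it was 3.91% at 5 to 8 reads and 4.85% (4.46 to 5.27%) at 17 to 32. At 33 to 64 reads it was 3.16% (1.92 to 5.14%). At 33 to 64 reads of each mark, same-strand dyads had 44.2% on the side of both marks, below the members.

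For 5fC the gap to same-strand dyads was wider at depth. A facing non-CG cytosine of the 5fC list on the 5hmC side was found in 6.64% of members at 5 to 8 reads and in 35.8% (interval 31.6 to 40.2%) at 33 to 64 reads. In same-strand dyads of the same read classes, the side of both marks had 5.14% and 20.2%. On the 5fC side of the members the share was 3.68% and 7.58%. In 170 of 475 members with 33 to 64 reads of each mark, the 5fC list held the facing non-CG cytosine in the 5hmC flank. That it did not hold their 5hmC cytosine follows from the rule, as for all members.

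Members were slightly more frequent where listed dyads were dense. The share of opposite strands was 16.6% (interval 16.5 to 16.8%) in one-strand dyads with 0 other listed dyads within 100 bases and 22.2% (22.0 to 22.4%) with 5 to 8. At 9 to 16 reads of each mark it rose from 18.4% to 25.5%, so the rise was seen at matched reads as well. With 9 to 16 neighbours it was 21.7% in both counts. Members had a mean of 2.76 listed dyads within 100 bases, and same-strand dyads 2.56.

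Members close to each other shared their orientation more often than distant ones. When the next one-strand dyad lay 2 to 4 bases away, it was opposite in 25.2% of cases after a member (interval 23.4 to 27.1%) and in 19.4% after a same-strand dyad (18.6 to 20.2%). At 1000 to 4999 bases both values were 19.7%. Over 2 to 19 bases the difference was 2.24 percentage points, and it was 0.683 points with at least 10 reads in both lists, where its interval of -0.122 to 1.49 includes 0. Of 527 pairs of adjoining members 2 to 4 bases apart, 68.5% (64.4 to 72.3%) had 5hmC on the same strand, and so 5fC on the same strand too. Pairs of same-strand dyads at this distance had their marks on the same strand in 62.4% (61.3 to 63.6%), so sharing at short range was not limited to members. Among pairs of members the share was 58.3% at 24 to 49 bases and 49.3% at 100 to 199 bases, close to the 50% of random strands. Among same-strand pairs it was 48.8% and 49.1%.

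The spacing of 20 to 23 bases stood apart here as well. After a same-strand dyad, the next one-strand dyad at this distance was opposite in 14.2% of cases (interval 13.6 to 14.8%), against 21.9% at 24 to 49 bases. After a member it was opposite in 21.4% (19.8 to 23.1%). Pairs of members at this distance had the same orientation in 44.6% (40.4 to 48.8%), whereas same-strand pairs had their marks on the same strand in 18.5% (17.8 to 19.2%). Marks on different strands, the usual arrangement of same-strand pairs at this distance, were less frequent among pairs of members.

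**Figure D5:**
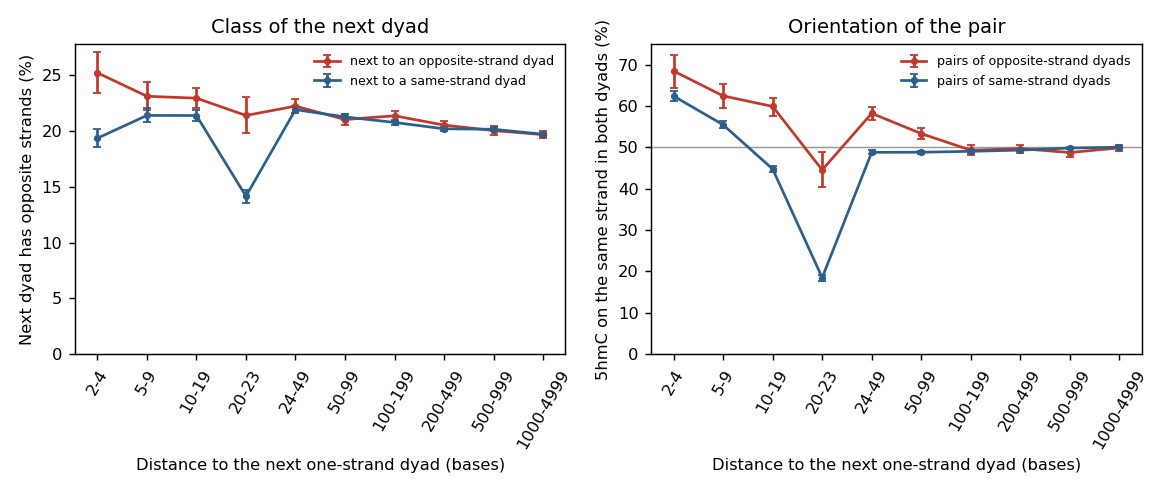
Left, share of next one-strand dyads with opposite strands (%), by distance in bases, after an opposite-strand or a same-strand dyad; right, share of pairs of the same class with 5hmC on the same strand (%). Error bars are 95% Wilson intervals; the line at 50% marks random strands. After same-strand dyads both values dip at 20 to 23 bases, to 14.2% and 18.5%.

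Along the chromosomes the share varied little. Among 5001 windows of 100 kb with at least 100 one-strand dyads, the share had a mean of 20.7% and an SD of 3.72 percentage points, where counting error alone gives 3.53. The most members, 69 of 306 one-strand dyads, lay on chromosome 5 from 116300001 to 116400000. Chromosome 9 had 67 of 285 between 118900001 and 119000000, and chromosome 8 had 66 of 307 between 123000001 and 123100000. Their shares of 21.5% to 23.5% were near that of all windows. The highest share, 35.3% (interval 26.7 to 44.9%), belonged to the window 45900001 to 46000000 of chromosome 19. It was 35.0% in the window 130600001 to 130700000 of chromosome 3, and 33.9% in 134500001 to 134600000 of chromosome 6. The lowest share, 8.53% (4.83 to 14.6%), was found both in the window 128700001 to 128800000 of chromosome 4 and in 36900001 to 37000000 of chromosome 15. The next was 9.17%, on chromosome 7 from 152000001 to 152100000. These are the extremes of 5001 windows with spreads near counting error.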

How the data were processed

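Per the labels, 6 Pvu-Seal-seq libraries of E14 DNA were made. The authors deposited 2 tables of raw read counts per listed cytosine, pooled over libraries. Per the submitters' processing notes, CASAVA, bcl2fastq, cutadapt and Bowtie were used with mm9. The assignment of reads to cytosines, the listing of sites and the way of telling 5fC from 5hmC were not given in the sources used here. The 5hmC table was taken as that of the passage 14 culture.

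Dyads were keyed by the plus cytosine. Partners were counted at 20 to 23 bases between dyads, which is 21 to 24 bases between facing cytosines. The spacing of 30 to 33 bases served as reference. Named dyads are the 6 with the largest smaller read number and the 3 with the most reads of each mark. Named windows of 100 kb are the 3 with the most members and the 3 highest and 3 lowest shares. Dyads and windows on chromosome 18 were counted but not named. Members, the spacing and the comparisons were chosen with earlier results of these data known. Counting functions were tested on simulated data. Alternatives were other read minimums, chromosomes, deep sites, spacings and window sizes. Python 3.11.15, numpy 2.4.6, pandas 2.3.3 and scipy 1.17.1 were used.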

Additional observations from a re-analysis of the deposited data

How the results depend on the processing

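No paired analysis was possible because each table holds 1 pooled read number per site, and leaving out single libraries was not run for the same reason. The share of opposite strands was 19.3% with at least 5 reads per site in both lists, 17.004% with at least 10, and 19.1% with at least 10 in the 5hmC list alone. These settings also changed which dyads are members: 192683, 73850 and 144944 of the reported ones were shared, or 69.4%, 26.6% and 52.2%. In the same order, the median reads as a ratio of the same-strand median were 0.60, 0.692 and 0.739 for 5hmC (0.556 as reported) and 0.786, 0.789 and 0.714 for 5fC (0.692 as reported). Without chromosomes 8 and 11 the ratios were 0.588 and 0.750. CG partners on the 5hmC side were at 6.64%, 7.09% and 6.92%, and on the 5fC side at 4.50%, 5.29% and 4.99%. A spacing of 18 to 25 bases covers more positions and gave 12.8% and 9.95%. At 2 to 19 bases, the next dyad was opposite 2.24 percentage points more often after a member than after a same-strand dyad. With at least 10 reads in both lists this was 0.683 points, with an interval from -0.122 to 1.49, and with at least 10 in the 5hmC list 0.918 points. Pairs of members with one orientation were then 63.97% in place of 62.0% with at least 10 reads in both lists. Leaving out sites above 1000 reads moved none of these values beyond its interval. The cause of the moves was not tested. With windows of 1 Mb, the SD of the share was 2.48 points where counting error gives 2.14.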
